A study of Mus musculus with 49 samples.

Results

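Cas9-induced lesions were compared between sgRNA3 and sgRNA2 at 36 integrated reporters (IRs) of a clonal mouse embryonic stem (mES) cell line. The comparison rests on 2 of the series' samples, 1 for each guide, and on the reads whose barcode is among the 36 listed for this line. The questions were how the balance of insertions and deletions, the sizes of the lesions and the diversity of alleles differed between the guides at the same loci. Of 217969 reads with sgRNA3, 210503 (96.6%) carried one of the 36 barcodes, and of 174002 reads with sgRNA2, 169141 (97.2%) did.

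Both samples come from the line EStTA-PB-B-18, a derivative of EBRTcH3 mES cells in which ROSA26 drives a transactivator (tTA) that responds to tetracycline. It was grown from 1 cell and holds EGFP reporters driven by the PGK promoter, each with its own barcode, inserted by the piggyBac transposase at different places of the genome. The cells were co-transfected with a plasmid for SpCas9 and the guide RNA and with an mCherry plasmid. The study's methods elsewhere call this mCherry plasmid a piggyBac transposase plasmid. Cells were sorted for mCherry and expanded before genomic DNA was amplified and sequenced. The results thus describe a single clone. Assays were done in triplicate and merged before deposit, so each guide has 1 sample. IRs share the cells of a sample and are not replicates of a guide. Differences between guides are therefore given with their spread over IRs and the number of IRs in each direction, without a test. The labels give the sgRNA3 sample another number than the sgRNA2 sample. The sample of a further guide, sgRNA1, which is named in places below, has the same number as the sgRNA2 sample. What the number marks is not stated, and were it a batch, its part could not be told apart from that of the guide.

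SpCas9 cuts both DNA strands close to the PAM, the short motif next to the target that the enzyme needs for binding. The ends are mostly joined by non-homologous end joining, which can leave small deletions or insertions, or by pathways that align short repeats on either side of the break and lose the bases in between. When Cas9 leaves ends with a short overhang, filling in the overhang before joining copies the base next to the break, and a templated insertion of that base results.

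The expected cut, called the 3|4 site, lies between nucleotides 3 and 4 upstream of the PAM. The sequences of both targets are shown because the most frequent lesions repeat or remove bases at this site. They were read from wild-type reads of each guide's own assay, with the PAM in capitals:
sgRNA3 target: agtgtcacctaaatcgtatgCGGccg
sgRNA2 target: cgccgggatcactctcggcaTGGacg

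The nucleotides 4 and 3 upstream of the PAM are T and A in the sgRNA3 target and G and G in the sgRNA2 target. sgRNA2 lies on the sense strand, and its 3|4 site is 23 bases before the end of the EGFP stop codon. sgRNA3 lies on the antisense strand, with its 3|4 site 16 bases past the stop codon. From the 3|4 site to the end of the sequenced reporter on the barcode side there are 26 bases with sgRNA3 and 65 with sgRNA2. Of 20 target bases, 8 are G or C with sgRNA3 and 14 with sgRNA2.

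The 5 alleles with the highest mean share of single-lesion reads for each guide are shown next, in order of that share. An allele is a lesion with its class, bases and position, and a single-lesion read has exactly 1 deletion or 1 insertion. Capitals mark the deleted or inserted bases. Where a lesion can be placed at several positions with the same outcome, the deposited placement is shown.
sgRNA3 allele 1, insertion: agtgtcacctaaatcgtTatgcggccg
sgRNA3 allele 2, deletion: agtgtcacctaaatCGTATgcggccg
sgRNA3 allele 3, deletion: agtgtcacctaaATCGtatgcggccg
sgRNA3 allele 4, deletion: agtgtcacctaaatCGtatgcggccg
sgRNA3 allele 5, deletion: agtgtcacctaaatCGTatgcggccg
sgRNA2 allele 1, deletion: cgccgggatcactctcgGcatggacg
sgRNA2 allele 2, deletion: cgccgggatcactctCGgcatggacg
sgRNA2 allele 3, insertion: cgccgggatcactctcggGcatggacg
sgRNA2 allele 4, deletion: cgccgggatcaCTCTCGGCAtggacg
sgRNA2 allele 5, deletion: cgccgggatcactCTCGgcatggacg

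Depth per IR ranged from 1873 to 11481 reads with sgRNA3 (median 5916) and from 1581 to 9618 with sgRNA2 (median 4609). Single-lesion reads, on which the following values rest, numbered 134193 with sgRNA3 and 79213 with sgRNA2, and at least 1208 and 792 at each IR in the same order. Intervals for shares of reads are 95% Wilson intervals and cover counting error only, since the reads carry no molecular identifiers. Reads of the sgRNA2 assay differed more often from the reporter sequence. Over 68 bases, 97.6% of wild-type reads with sgRNA3 and 64.8% with sgRNA2 had no mismatch, or 0.0646% and 1.64% mismatched bases. The first 2 bases of sgRNA2 reads, which vary between reads, were left out of these values.

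Insertions made up a far larger part of the lesions with sgRNA3 than with sgRNA2. The insertion share, the percentage of insertions among single-lesion reads, was 40.7% ± 7.49 (SD over IRs, n = 36) with sgRNA3 and 11.1% ± 3.44 with sgRNA2. With sgRNA3 it had its lowest value of 29.2% at BC_31, a median of 40.1% and its highest value of 67.9% at BC_30. With sgRNA2 it was lowest at BC_24 with 7.44%, had a median of 10.5% and was again highest at BC_30, with 26.1%. The ranges of the guides over IRs did not overlap. sgRNA3 was higher at 36 of 36 IRs, by 29.7 percentage points on average (SD over IRs 5.07), between 21.1 points at BC_31 and 43.0 points at BC_26.

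Expressed as a ratio, there were 0.726 insertions per deletion with sgRNA3 and 0.126 with sgRNA2, as means over IRs. Insertions outnumbered deletions at 2 IRs with sgRNA3, BC_26 and BC_30, and at 0 of 36 IRs with sgRNA2. Of all reads, wild-type ones included, single insertions were 25.7% with sgRNA3 and 5.06% with sgRNA2, and single deletions were 37.9% and 41.9%. The share of all reads with a deletion was lower with sgRNA3 at 31 IRs and higher at 5. The plot of insertion share by IR shows the distance between the guides and the 2 IRs that lie above the others with each guide.

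**Figure D1:**
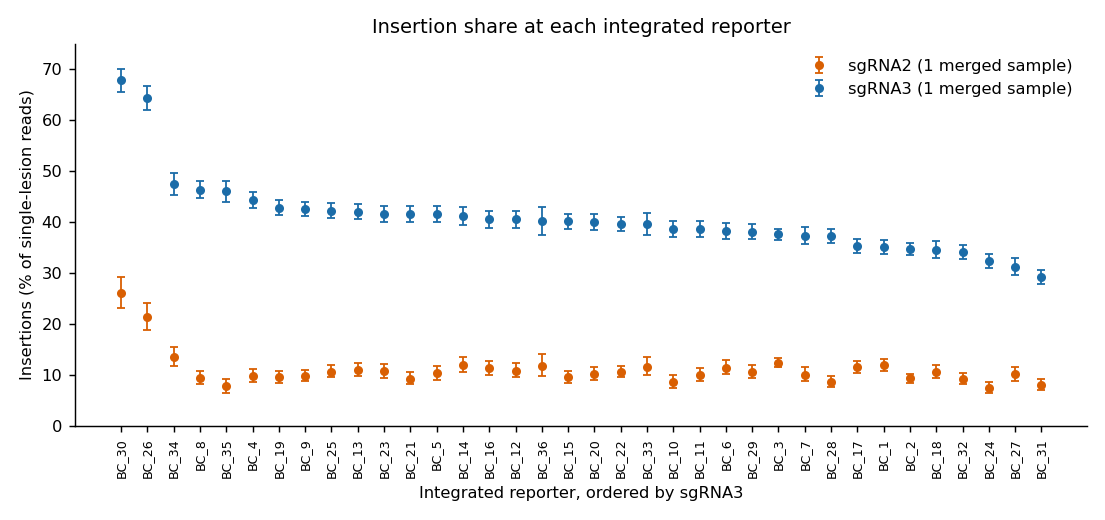
Insertion share in percent of single-lesion reads (y axis) at each of the 36 IRs (x axis, ordered by the sgRNA3 value), with sgRNA3 in blue and sgRNA2 in orange. Points are IRs of 1 merged sample per guide and bars are 95% Wilson intervals. sgRNA3 ranges from 29.2% to 67.9% and sgRNA2 from 7.44% to 26.1%, with BC_30 and BC_26 highest for both.

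With sgRNA1, whose target overlaps that of sgRNA2 on the other strand, the 36 IRs of the cell line had an insertion share of 4.61% ± 0.784.

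Nearly all insertions with sgRNA3 were the same lesion. Insertions of 1 bp made up 94.9% of insertions with sgRNA3 (IRs from 92.3% to 97.5%) and 78.2% with sgRNA2 (IRs from 67.7% to 83.9%), and sgRNA3 was higher at 36 of 36 IRs. In reads with no mismatch outside the lesion, a choice made after seeing the data, the shares were 95.8% and 85.7%, and sgRNA3 was higher at 35 IRs and lower at 1. Among 1-bp insertions, T was inserted in 97.9% ± 0.738 with sgRNA3, G in 0.973%, A in 0.677% and C in 0.473%. With sgRNA2, G was inserted in 73.2% ± 5.28, C in 11.7%, T in 9.24% and A in 5.88%. The leading base is thus the nucleotide 4 upstream of the PAM for each guide.

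A copy of that nucleotide that can be placed at the 3|4 site was 97.7% ± 0.794 of 1-bp insertions with sgRNA3 and 72.3% ± 5.31 with sgRNA2. Insertions of another base at the 3|4 site were 1.32% with sgRNA3 and 19.2% with sgRNA2. Insertions placed elsewhere were 0.986% and 8.47%. The inserted bases and their places were not recomputed in reads with no mismatch outside the lesion. The part of misread bases in them, more frequent with sgRNA2, was therefore not tested. In the sgRNA2 target both nucleotides beside the 3|4 site are G, so that a copy of the nucleotide on either side gives the same sequence and these cannot be told apart. Insertions of 2 bp or more were 2.09% of single-lesion reads with sgRNA3 and 2.40% with sgRNA2, with sgRNA3 higher at 13 IRs and lower at 23.

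Deletions were shorter with sgRNA3 at nearly every IR, but the length of sequence in view differed between the assays. The mean deletion size was 7.96 bp ± 0.715 (SD over IRs) with sgRNA3 and 10.0 bp ± 1.28 with sgRNA2. With sgRNA3 the lowest IR had 6.49 bp, the median IR 7.92 bp and the highest 9.45 bp, and with sgRNA2 these were 8.01, 9.87 and 13.0 bp, so that the ranges overlapped. sgRNA3 was lower at 35 of 36 IRs, by 2.06 bp on average (SD over IRs 1.19). The exception was BC_26, with 8.44 bp against 8.01 bp. Deletions of 10 bp or more were 25.3% of deletions with sgRNA3 and 31.4% with sgRNA2, with the other order at BC_12 (32.9% against 32.3%) and BC_30 (26.6% against 25.6%). Short deletions were not particular to sgRNA3. With sgRNA1 the mean size was 7.24 bp ± 0.777, and deletions of 10 bp or more were 23.4% of deletions. The longest single deletion was 67 bp with both sgRNA1 and sgRNA2, and 49 bp with sgRNA3.

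The reads with sgRNA3 show deletions reaching at most 18 bases from the 3|4 site on the barcode side, while those with sgRNA2 reach 49 bases there. Deletions reaching over 18 bases on either side were 3.88% of deletions with sgRNA3 and 8.73% with sgRNA2. When these were left out for both guides, a choice made after seeing the data, the mean size was 6.90 bp with sgRNA3 and 7.34 bp with sgRNA2. The difference then was 0.438 bp in place of 2.06 bp, with sgRNA3 lower at 28 of 36 IRs. The difference in deletions of 10 bp or more, -6.19 percentage points over all deletions, as sgRNA3 minus sgRNA2, was -3.25 points within the 18 bases, with sgRNA3 lower at 28 IRs and higher at 8. When alleles seen in 1 read were left out, it was -5.27 points, with sgRNA3 lower at 31 IRs and higher at 5. When reads of low alignment score were left out, it was -11.0 points, with sgRNA3 lower at 36 of 36 IRs. The authors' alignment score includes a penalty for gap length, so this filter is tied to deletion size and cannot check the difference. With it, deletions of 10 bp or more were 17.0% of deletions with sgRNA3 and 28.0% with sgRNA2.

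The sizes that were frequent differed more clearly than the mean. With sgRNA3, the leading sizes were 4 bp (13.8% ± 2.84 of deletions), 5 bp (13.7% ± 2.14) and 2 bp (13.2% ± 2.86). With sgRNA2, they were 1 bp (13.4% ± 2.75), 2 bp (12.2% ± 1.36) and 9 bp (7.60% ± 0.888). Deletions of 4 bp and 5 bp were 6.46% and 6.39% with sgRNA2, below sgRNA3 at 36 of 36 IRs for each size. Deletions of 1 bp were 8.35% with sgRNA3 and lower than with sgRNA2 at 36 of 36 IRs.

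Sizes of 2 bp and 3 bp separated the guides less. Deletions of 2 bp were more frequent with sgRNA3 at 25 IRs and less frequent at 11, and those of 3 bp (6.05% with sgRNA3, 5.95% with sgRNA2) at 17 and 19. The 9-bp size, 1.98% with sgRNA3, and the 16-bp size, 1.54% with sgRNA3 and 4.39% with sgRNA2, were lower with sgRNA3 at 36 of 36 IRs. In the plot of deletion sizes, both stand out from their neighbours with sgRNA2.

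**Figure D2:**
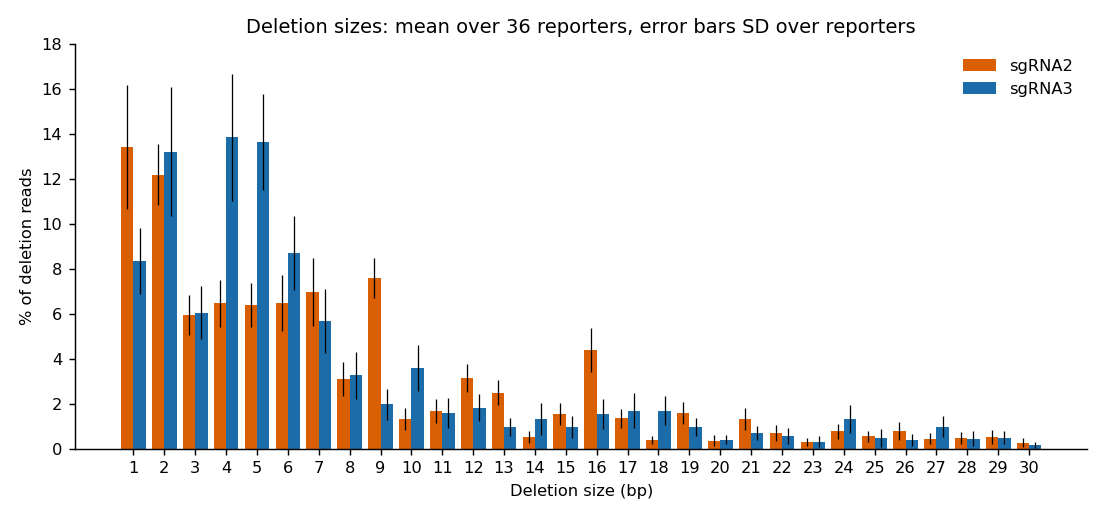
Percentage of deletion reads (y axis) by deletion size from 1 to 30 bp (x axis) with sgRNA2 in orange and sgRNA3 in blue. Bars are means over the 36 IRs and error bars are SD over IRs. The blue bars are highest at 4 and 5 bp (13.8% and 13.7%), the orange bars at 1 and 2 bp (13.4% and 12.2%), with further orange peaks at 9 and 16 bp (7.60% and 4.39%).

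Deletion ends also lay at different nucleotides. With sgRNA3, 52.4% ± 3.44 of deletions had an end that can be placed at the 4|5 site, 1 base further from the PAM than the 3|4 site, and 42.8% ± 3.71 had an end that can be placed at the 3|4 site. With sgRNA2 these were 26.5% ± 2.72 and 45.1% ± 3.76. Deletions ending at the 4|5 site and not at the 3|4 site were 35.2% with sgRNA3 and 8.89% with sgRNA2, more frequent with sgRNA3 at 36 of 36 IRs. Alleles 3 and 4 of sgRNA3, which lose ATCG and CG, are of this kind. Deletions with an end at neither site were 22.0% with sgRNA3 and 46.0% with sgRNA2, lower with sgRNA3 at 36 of 36 IRs.

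A deletion with bases repeated at its 2 ends can be placed at several positions, and its length of repeat is called microhomology. Deletions with at least 1 base of microhomology were 52.2% ± 2.87 with sgRNA3 and 59.3% ± 2.28 with sgRNA2, lower with sgRNA3 at 36 of 36 IRs. Those with at least 2 bases were 30.8% ± 3.76 and 28.9% ± 3.41, with sgRNA3 above sgRNA2 at 26 IRs and below it at 10. The most frequent deletion with sgRNA3, the loss of CGTAT, and the 9-bp deletion with sgRNA2 each have 2 further placements.

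Allele diversity was lower with sgRNA3 than with sgRNA2 at every IR. The insertion of T at the 3|4 site, allele 1, was the most frequent allele at 36 of 36 IRs and held 37.8% ± 7.00 of single-lesion reads, from 27.6% at BC_31 to 64.2% at BC_30. With sgRNA2 the leading allele, the loss of 1 G beside the 3|4 site, held 10.4% ± 1.81, from 8.41% at BC_8 to 18.3% at BC_26. It was the most frequent allele at 35 IRs, and the insertion of G (6.34% ± 2.48 over all IRs) was the most frequent at BC_30, with 17.3%.

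The alleles that followed held smaller shares. The loss of CGTAT held 7.01% ± 1.76 of single-lesion reads with sgRNA3, that of ATCG 5.29% ± 1.86, that of CG 4.58% ± 1.53 and that of CGT 2.99% ± 0.849. Among deletions alone, CGTAT was the most frequent at 25 IRs and ATCG at 11. With sgRNA2, the loss of CG held 6.47% ± 0.948, the 9-bp deletion 4.14% ± 0.736 and the loss of CTCG 3.16% ± 0.671. The single G was the most frequent deletion at 36 of 36 IRs.

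The effective number of alleles is the inverse Simpson index, the number of alleles of equal frequency that would give the same chance that a pair of reads hold the same allele. It was 6.60 ± 1.52 with sgRNA3 and 34.7 ± 5.94 with sgRNA2. With sgRNA3 it had its lowest value of 2.40 at BC_30, a median of 6.47 and its highest value of 10.7 at BC_31, and with sgRNA2 it ran from 15.4 at BC_26 over a median of 34.6 to 44.0 at BC_31. The ranges did not overlap. The 10 most frequent alleles of an IR held 69.4% of its single-lesion reads with sgRNA3 and 42.7% with sgRNA2. A low effective number was also found with sgRNA1, at 6.35 ± 0.679, where the most frequent allele held 38.2% ± 2.34 of single-lesion reads.

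The number of distinct alleles was compared at an equal depth of 500 single-lesion reads. It was 88.1 ± 11.1 with sgRNA3 and 134 ± 9.32 with sgRNA2. With sgRNA3 it was lowest at BC_26 with 59.6, had a median of 88.7 and was highest at BC_31 with 110.0. With sgRNA2 it was lowest at BC_26 with 106, had a median of 134 and was highest at BC_7 with 149. The ranges overlapped between IRs, but sgRNA3 was lower at 36 of 36 IRs, by 46.0 alleles on average (SD over IRs 7.41). The size of the difference depended on the reads kept. Without deletions reaching over 18 bases from the 3|4 site, a choice made after seeing the data, the numbers were 80.1 with sgRNA3 and 111 with sgRNA2. Without deletions of 20 bp or more they were 70.6 and 103, and without alleles seen in 1 read 83.8 and 116. In each case sgRNA3 was lower at 36 of 36 IRs.

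A misread base can add alleles, and mismatches moved with the guide. Alleles seen in 1 read of an IR numbered 32.1 per IR with sgRNA3 and 83.2 with sgRNA2. Among reads with no mismatch outside the lesion, which are 92.5% of single-lesion reads with sgRNA3 and 48.5% with sgRNA2, the number of distinct alleles at 200 reads was 49.1 with sgRNA3 and 74.1 with sgRNA2. It was again lower with sgRNA3 at 36 of 36 IRs. Without that filter it was 52.4 and 81.5 at 200 reads. The filter was chosen after seeing the data.

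**Figure D3:**
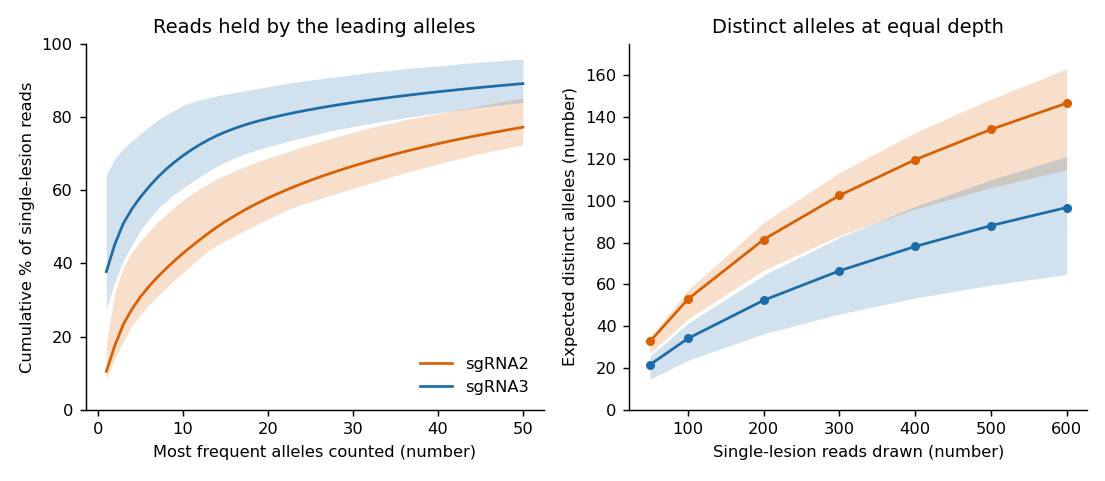
Left, cumulative percentage of single-lesion reads (y axis) held by the most frequent alleles of an IR (x axis, number of alleles). Right, expected number of distinct alleles (y axis) among single-lesion reads drawn without replacement (x axis, number of reads). Lines are means over 36 IRs and bands run from the lowest to the highest IR, with sgRNA3 in blue and sgRNA2 in orange: 10 alleles hold 69.4% with sgRNA3 and 42.7% with sgRNA2, and 500 reads hold 88.1 and 134 distinct alleles.

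The difference in diversity was smaller within each lesion class. Among deletions alone, the effective number of alleles was 22.7 ± 4.30 with sgRNA3 and 32.1 ± 5.52 with sgRNA2. sgRNA3 was lower at 34 IRs, with the other order at BC_26 (15.8 against 13.6) and BC_30 (19.9 against 17.4). At an equal depth of 200 deletions, there were 63.1 ± 6.63 distinct deletions with sgRNA3 and 78.1 ± 4.84 with sgRNA2, lower with sgRNA3 at 36 of 36 IRs. Among insertions alone, the effective number was 1.16 with sgRNA3 and 3.04 with sgRNA2, also lower at 36 of 36 IRs. Values within each class were not recomputed in reads with no mismatch outside the lesion.

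IRs shared most of their lesion spectrum for each guide. With sgRNA3, 21 of 963 alleles were seen at all 36 IRs and held 77.8% of single-lesion reads, and with sgRNA2, 44 of 1644 alleles did so and held 72.0%. Alleles seen at 1 IR were 43.6% of all alleles but held 0.727% of reads with sgRNA3, and 50.3% and 1.71% with sgRNA2. The overlap of an IR's allele shares with the mean of the other IRs was 82.2% ± 5.14 with sgRNA3 and 77.8% ± 3.94 with sgRNA2. It was lowest at BC_30 for both guides, with 64.3% and 63.6%. Since more reads were sequenced with sgRNA3, overlaps of the 2 guides are not at equal depth.

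BC_26 and BC_30 stood apart from the other 34 IRs with each guide. They had the 2 lowest mutation frequencies, the percentage of an IR's reads with any lesion, at 49.0% and 51.7% with sgRNA3 and 31.8% and 35.1% with sgRNA2. The other IRs ranged from 55.0% to 76.1% with sgRNA3 and from 40.4% to 64.1% with sgRNA2. Their insertion shares, 64.4% and 67.9% with sgRNA3 and 21.4% and 26.1% with sgRNA2, were above the highest of the other IRs, which was BC_34 with 47.5% and 13.6%. The cell line table gives no genomic position for these 2 IRs, nor for 7 others.

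Deletions were the class in which these 2 IRs fell short. As a percentage of all reads, deletions were 17.0% at BC_26 and 16.3% at BC_30 with sgRNA3, against 39.1% ± 3.60 at the other 34 IRs, and 22.9% and 23.6% against 43.0% ± 4.45 with sgRNA2. Insertions were 30.8% and 34.5% of all reads with sgRNA3, against 25.3% ± 3.31 at the other IRs. With sgRNA2 they were 6.24% and 8.35%, against 4.93% ± 0.746. The highest of the other IRs had 34.1% with sgRNA3 (BC_35) and 7.10% with sgRNA2 (BC_34). For insertions of all reads, BC_26 thus lay within the range of the other IRs with both guides, and BC_30 above it.

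The shape of the remaining deletions at these IRs was not the same for the guides. With sgRNA2, deletions of 1 or 2 bp made up 38.5% of deletions at BC_26 and 36.4% at BC_30, above the highest of the other IRs (29.2%, at BC_34). With sgRNA3 they made up 15.3% and 24.0%, within the range of the other IRs from 12.9% to 27.5%. With sgRNA1, the 2 IRs also had the highest insertion shares, 6.58% and 6.44%, against at most 5.91% elsewhere.

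**Figure D4:**
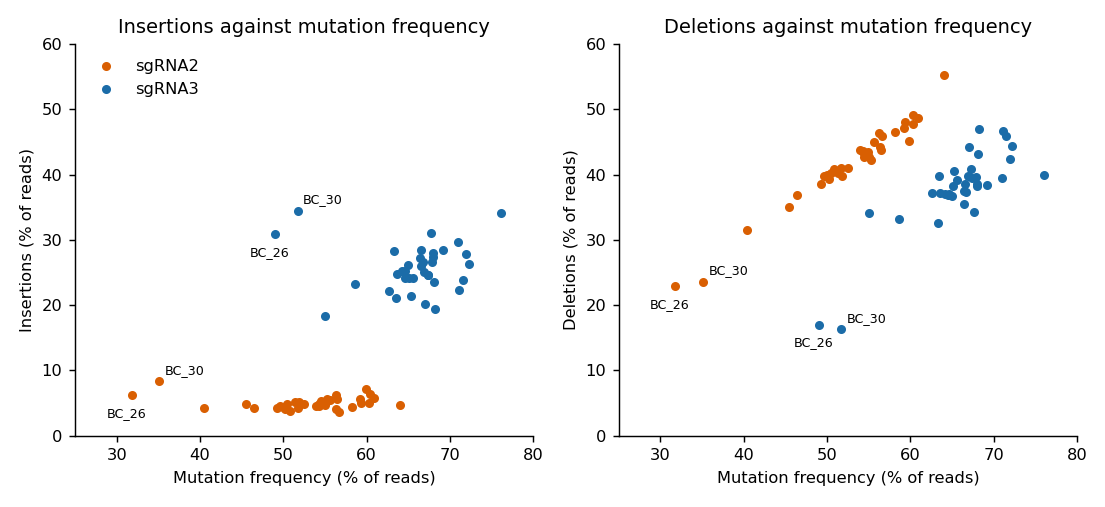
Single insertions (left) and single deletions (right) in percent of all reads (y axes) against mutation frequency in percent of reads (x axes), with each point 1 of the 36 IRs, sgRNA3 in blue and sgRNA2 in orange. BC_26 and BC_30 lie at the lowest mutation frequency of each guide, with 17.0% and 16.3% deletions with sgRNA3 and 22.9% and 23.6% with sgRNA2, and insertions above the mean of the other IRs (25.3% and 4.93%).

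IRs kept their order between guides in some measures and less in others. Over the 36 IRs, which share the same cells and the same barcodes in both assays, mutation frequency had a Pearson's r of 0.94 and a Spearman's rho of 0.84. For insertion share, r was 0.82 but rho 0.27, and r was 0.24 without BC_26 and BC_30, so that the relation rests on these 2 IRs. The number of distinct alleles kept a closer relation, with r = 0.75, rho = 0.61 and r = 0.59 without the same IRs. For mean deletion size, r was 0.39 and rho 0.27. These values describe this clone, and no test was made of them.

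The spread of insertion share over IRs, as a part of the mean, was 18.4% with sgRNA3 and 31.1% with sgRNA2, and 10.7% and 13.1% without BC_26 and BC_30. Set against the SD that counting of reads alone gives, the SD over IRs was 8.69 times as large with sgRNA3 and 4.81 times with sgRNA2, and 5.06 and 2.03 times without these IRs. This ratio rises with depth, which was higher with sgRNA3, and counting is the least error that such reads can have, so the ratios do not compare the guides. With sgRNA3, the IR with the lowest insertion share and most distinct alleles, BC_31, maps to chromosome 11 at position 3033098 of mm9, in an exon of Sfi1 on the minus strand. BC_24, lowest in insertion share with sgRNA2, maps between genes on chromosome 12 at position 59340290, and it was the third lowest of the 36 with sgRNA3, at 32.4%. BC_12, with more deletions of 10 bp or more with sgRNA3, maps to an intron of Fbxo11 on chromosome 17 at position 88422265.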

How the data were processed

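Genomic DNA of the cell line was amplified around the targets and sequenced. The authors extracted the barcode and the target region of every read, made a semi-global alignment to the wild-type reporter and deposited the lesion class, bases, position and an alignment score of each read, with triplicates merged. The aligner program is not given in the sources used here. The authors' positions are on mm9. Genes came from GENCODE release M1 for the same build.

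Reads with the 36 barcodes of the cell line table were grouped by IR, and single-lesion reads were taken with the deposited placement. Alleles at equal depth were computed from the hypergeometric formula. Scripts used Python 3.11.15, pandas, NumPy and SciPy, and were checked on simulated reads. IRs to name were the highest and lowest of insertion share and distinct alleles and, where 5 or fewer went against the others, those. Alleles to name were the 5 most frequent per guide. BC_8 and BC_34, the 9-bp and 16-bp sizes and the comparison of BC_26 and BC_30 with the other IRs were chosen after their values were seen. The members and lists were chosen with earlier results of these data known. The cell line table also holds 2 count columns of another study's samples, which were not used. No test compares the guides, with 1 sample each. Alternatives covered the reads and IRs kept, averaging and the diversity index.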

Additional observations from a re-analysis of the deposited data

Results flagged for a closer look

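A barcode outside the 36 of the cell line table had as many reads as some listed IRs, and its lesions differed between the guides in the same direction. It was noticed as signal in data outside the main comparison. Its 16 bases differ from every listed barcode at 5 or more positions. It had 3551 reads with sgRNA3 and 2896 with sgRNA2, 47.6% and 59.6% of the reads with unlisted barcodes, and the next most frequent unlisted barcode had 115 and 12 reads. Its mutation frequency was 74.6% (95% Wilson interval 73.2 to 76.0) with sgRNA3 and 61.6% (59.9 to 63.4) with sgRNA2. Its insertion share was 35.2% (33.4 to 37.1) with sgRNA3 and 9.44% (8.09 to 11.0) with sgRNA2, with a mean deletion size of 6.98 bp and 9.72 bp. What the barcode is was not tested, and no control sample without Cas9 was used here.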

How the results depend on the processing

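Of 93 values recomputed under alternatives, 62 moved less than counting error or the limits set for counts and correlations, 31 moved further and 0 changed direction. Differences are given as sgRNA3 minus sgRNA2. The limits for numbers of alleles were wide, so the 62 include clear shifts. The difference in effective number of alleles went from -28.1 to -37.0 with complex reads counted. That in distinct alleles went from -46.0 to -30.8 with deletions within 18 bases of the 3|4 site. The insertion share difference of 29.7 points became 32.0 without low-score reads, 30.2 without alleles seen in 1 read, 30.5 without deletions of 20 bp or more, 28.9 with reads pooled over IRs and 28.9 without the 2 farthest IRs, BC_26 and BC_30. The difference in share of the most frequent allele was 29.5 without low-score reads, 28.0 without deletions of 20 bp or more, 26.5 with reads pooled and 26.3 without BC_26 and BC_30. For the 1-bp share of insertions it was 13.8 without low-score reads, 12.4 without alleles seen in 1 read and 15.4 as medians. For mean deletion size it was -2.33, -1.83 and -1.95 bp in the same order, and -0.516 bp without deletions of 20 bp or more. For deletions of 10 bp or more it was -11.0 points without low-score reads, -5.27 without alleles seen in 1 read and -3.88 with a limit of 20 bp.

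The difference in distinct alleles was -74.1 with complex reads counted and -29.1 at 200 reads, and that in effective number of alleles was -55.3 with the exponential of the Shannon entropy. The correlation of insertion share between guides was 0.24 without BC_26 and BC_30. Alternatives chosen after seeing the data were reads without a mismatch outside the lesion, lesions near the 3|4 site, deletions within 18 bases of it and the further barcode. With reads without mismatch, the differences were 32.9 points in insertion share, 10.1 in 1-bp share, -3.23 bp in mean deletion size, -11.05 points in deletions of 10 bp or more, 30.4 points in the most frequent allele and, at 200 reads, -25.0 distinct alleles. Within 18 bases, mean deletion size differed by -0.438 bp and deletions of 10 bp or more by -3.25 points. Changes in sizes by construction follow from leaving out long deletions. Leaving out low-score reads also bears on sizes by construction, since the score includes a penalty for gap length. With it, the mean deletion size was 5.81 bp with sgRNA3 and 8.14 bp with sgRNA2. For the other alternatives the cause was not tested. No paired analysis was possible because each guide has 1 merged sample in the cell line. Depth limits the rare alleles, and long deletions past the read or primer are not seen.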

Other observations

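Reads of the sgRNA2 assay began with 4 different pairs of bases in 98.5% of cases, while 99.99% of sgRNA3 reads began with the same pair. The study's methods name forward primers with different index sequences for separate reactions of the cell line. Whether the pairs belong to these primers was not tested. The mean insertion share over IRs in these 4 sets of sgRNA2 reads, of 28507 to 54981 reads each, was 11.0%, 11.1%, 11.1% and 11.1%, the mean deletion size 9.90 to 10.1 bp and the mean mutation frequency 52.5% to 53.1%.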
